A study of Homo sapiens with 16 samples.

Results

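The nuclear-encoded genes of oxidative phosphorylation were followed in LN229, an established human glioblastoma cell line, by RNA-sequencing (RNA-seq) of 16 libraries. Members were chosen by gene symbol alone: the names of the complex I (NDUFA, NDUFB, NDUFC, NDUFS and NDUFV), complex II (SDHA to SDHD), complex III (UQCR), complex IV (COX with a digit) and ATP synthase (ATP5) families, without pseudogenes and without the subunits encoded in mitochondrial DNA. They came to 87 genes of the 13475 listed in both expression tables, namely 34 of complex I, 4 of complex II, 8 of complex III, 12 of complex IV, 9 complex IV assembly factors, 17 of complex V, the complex V inhibitor *ATP5IF1*, the *NDUFA4* paralog *NDUFA4L2* and *UQCRHL*, an intronless coding copy of *UQCRH*. *NDUFA4* was counted in complex IV, where its product is now placed, and *COX7A2L*, a supercomplex assembly factor, was kept with complex IV. Another 11 nuclear coding genes with matching names, among them the hypoxia-linked isoform *COX4I2* and the muscle isoforms *COX6A2* and *COX7A1*, were not analysed here, so a switch from *COX4I1* to *COX4I2* could not be followed.

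All libraries came from the same parental line with no gene altered, in 8 groups of 2. The first experiment compared untreated cells in regular culture (regular untreated) with untreated cells in an ischemia-mimetic culture low in glucose, glutamine, serum and oxygen (ischemic untreated). The second experiment repeated both cultures with DMSO vehicle, with VX745, an inhibitor of the kinase p38α, or with MK25, an inhibitor of its substrate kinase MK2. The study's methods list a working concentration for each inhibitor without naming the experiment, and the duration for these libraries is not given in the sources used here. Nothing in the labels says whether the 2 libraries of a group came from separate cultures, so p-values measure the spread between these libraries, which may be technical.

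Oxidative phosphorylation passes electrons from NADH and succinate through complexes I and II, coenzyme Q, complex III, cytochrome c and complex IV to oxygen, and ATP synthase (complex V) uses the proton gradient so built. Most subunits are encoded in the nucleus, and a core set in mitochondrial DNA. Low oxygen is known to act on the chain through a few exchanges of subunits, of which the induction of *NDUFA4L2* and of *COX4I2* by hypoxia-inducible factor (HIF) are the best known, and through removal of mitochondria by *BNIP3* and *BNIP3L*.

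The tables held normalized log2 CPM, that is read counts scaled to an effective library size that differed from the read total. The libraries comprised between 20122017 and 37562668 reads on listed genes. The effective size was 24580040 for 27239609 reads in ischemic DMSO replicate 1, and 31451353 for 30228774 reads in regular DMSO replicate 1. Of 9 markers looked up for this line, *VIM* (2160 to 6994 CPM), *CD44* (761 to 1013 CPM) and *NES* (339 to 954 CPM) were high in every library. The astrocyte marker *GFAP* was at 0.780 to 2.08 CPM, and levels of *EGFR*, *SOX2*, *SOX9*, *S100B* and *OLIG2* are not given here. The markers of other cells, *PTPRC*, *PECAM1*, *EPCAM*, *RBFOX3* and *MBP*, were not among the listed genes. All 10 genes of a hypoxia list, such as *CA9* and *VEGFA*, were higher in ischemic culture in both experiments (median log2 fold change 4.55 untreated and 4.26 with DMSO). Members are short transcripts, with a median length of 804 nt against 3288 nt for all listed genes, and libraries differed in their yield of short transcripts. The library regular DMSO replicate 2 stood apart for a few of them: *ATP5F1E* was at 54.4 CPM there against 108 CPM in replicate 1, and *COX16* at 6.99 CPM against 11.2 CPM.

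The proximal promoters of 4 members are shown because these genes had the largest rise or the largest fall of their class in untreated ischemia: *NDUFA4L2* (chr12:57240713-57241012, minus strand) and *COX7A2L* (chr2:42361168-42361467, minus strand) rose in ischemic culture, whereas *ATP5MC1* (chr17:48892537-48892836, plus strand) and *NDUFS6* (chr5:1801157-1801456, plus strand) fell. Each sequence is the RefSeq stretch of 300 bases (GRCh38.p14) from 250 bases before to 50 bases after an annotated start, written 5′ to 3′. Capitals mark, on either strand, the HIF core letters ACGTG or GCGTG and, in *NDUFS6*, a match to CGCNTGCGC, the core of the nuclear respiratory factor 1 (NRF1) consensus. The ETS (GABP) core CCGGAAG had 0 matches in these windows, and the NRF1 core with a further G before it also had 0.
NDUFA4L2: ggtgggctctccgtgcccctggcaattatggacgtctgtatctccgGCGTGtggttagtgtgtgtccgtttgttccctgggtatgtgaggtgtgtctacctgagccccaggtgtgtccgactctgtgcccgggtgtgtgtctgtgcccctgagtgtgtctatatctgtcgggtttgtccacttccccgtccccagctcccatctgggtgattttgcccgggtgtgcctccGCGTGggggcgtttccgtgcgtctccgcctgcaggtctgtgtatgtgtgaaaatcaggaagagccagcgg
COX7A2L: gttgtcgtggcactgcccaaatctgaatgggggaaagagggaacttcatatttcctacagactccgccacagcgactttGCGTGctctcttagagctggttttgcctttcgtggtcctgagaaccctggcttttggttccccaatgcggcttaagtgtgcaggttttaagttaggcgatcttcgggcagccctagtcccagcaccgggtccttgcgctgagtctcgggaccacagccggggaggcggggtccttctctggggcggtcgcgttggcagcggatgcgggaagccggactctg
ATP5MC1: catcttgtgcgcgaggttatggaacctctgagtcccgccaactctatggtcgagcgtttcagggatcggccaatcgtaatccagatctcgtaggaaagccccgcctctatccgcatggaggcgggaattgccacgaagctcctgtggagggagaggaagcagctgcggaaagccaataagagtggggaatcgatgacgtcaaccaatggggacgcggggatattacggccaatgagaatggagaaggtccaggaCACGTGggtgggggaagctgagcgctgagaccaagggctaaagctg
NDUFS6: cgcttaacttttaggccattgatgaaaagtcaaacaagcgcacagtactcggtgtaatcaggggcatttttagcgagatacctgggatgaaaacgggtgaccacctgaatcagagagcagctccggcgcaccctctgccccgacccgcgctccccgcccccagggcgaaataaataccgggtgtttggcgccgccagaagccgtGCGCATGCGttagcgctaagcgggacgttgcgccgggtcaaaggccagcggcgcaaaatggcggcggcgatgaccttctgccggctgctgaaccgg

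The *NDUFA4L2* and *ATP5MC1* windows held 2 matches each to the HIF core, those of *ATP5MC1* being both strands of a single CACGTG, the *COX7A2L* window 1 and the *NDUFS6* window 0. Such short letters are common: ACGTG or GCGTG was found in 48.4% of all 27305 RefSeq promoters of this length, in 63.1% of those of genes listed in the second experiment and in 64.4% of the 73 members with a promoter sequence. The ETS core was found in 31.5% of members' promoters, 18.8% of those of listed genes and 10.7% of all, and the NRF1 core in 30.1%, 14.4% and 8.05%. With a G before it, the form searched first, the NRF1 core was found in 23.3%, 11.5% and 6.28%, and the shorter form was chosen after these counts were seen. These shares describe letters in a window, not binding.

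Comparing ischemic untreated with regular untreated cells asked how the respiratory chain genes responded to the ischemia-mimetic condition. Of the 87 members, 69 were lower and 5 higher in ischemic culture at an adjusted p under 0.05 in limma, against 35.2% of all genes tested that were lower and 35.2% that were higher. The median member changed by -0.45 on the log2 scale, while the median of all genes was -0.01. The 2 ischemic libraries lay below both regular libraries for 74 members, above both for 6 and overlapped for 7, and across all genes 42.8% lay below and 42.4% above. Most of the falls were moderate, and 29 members fell by at least 1.5-fold (20.2% of all genes). Members took 0.920% ± 0.050 of all reads in regular and 0.616% ± 0.010 in ischemic libraries (SD, n = 2). In bulk samples such as these, fewer cells that express a gene and less RNA per cell cannot be told apart.

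**Figure D1:**
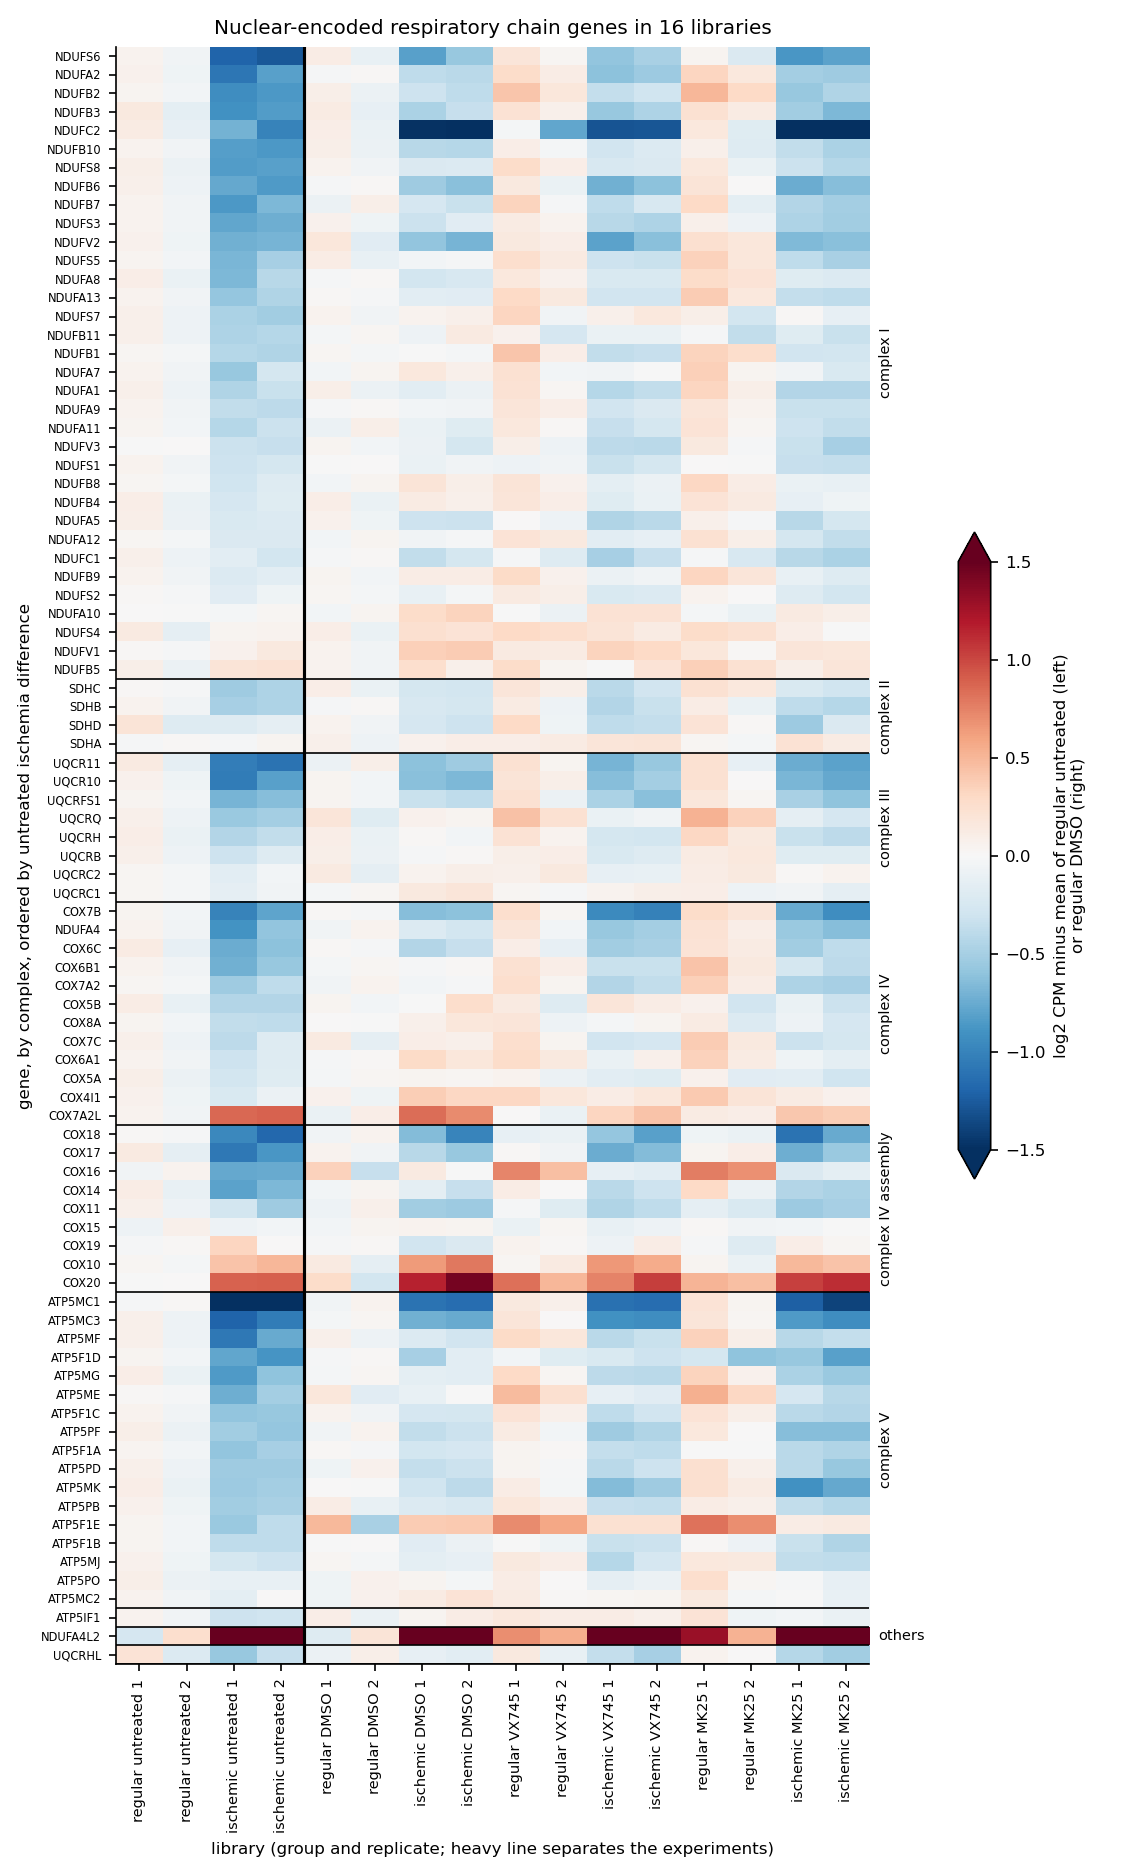
Log2 CPM of the 87 members (rows, grouped by complex) in 16 libraries (columns), each as the difference from the mean of regular untreated in the first experiment or of regular DMSO in the second, with colours limited at 1.5 either way. Both ischemic untreated libraries are blue for most rows, while *NDUFA4L2*, *COX7A2L*, *COX20* and *COX10* are red.

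Complex I, the NADH dehydrogenase, had 29 of 34 members lower and 1 higher, with a median of -0.42. *NDUFS6*, a zinc-binding subunit of the peripheral arm, was at 115 and 107 CPM in regular and at 47.9 and 45.9 CPM in ischemic libraries. This was the largest fall in the complex (log2 fold change -1.24 ± 0.07 SE, adjusted p = 2.2e-08). *NDUFA2* went from 64.8 and 59.8 to 29.4 and 35.4 CPM (-0.95 ± 0.10, adjusted p = 2.5e-06). The accessory subunit *NDUFB2* went from 70.5 and 66.1 to 35.8 and 37.7 CPM (-0.89 ± 0.08, adjusted p = 6.1e-07). For all 3 genes the ischemic libraries lay far below the regular ones.

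The other end of complex I was flat. *NDUFB5* was the member that rose, from 48.4 and 42.9 to 52.0 and 53.0 CPM (0.21 ± 0.08, adjusted p = 0.041), a call that was lost when libraries were centred on their median (adjusted p = 0.093). The flavoprotein *NDUFV1*, where NADH is oxidized, changed by 0.10, *NDUFA10* by 0.00 and *NDUFS4* by 0.05, and none of them passed the test. Values of *NDUFC2* are uncertain, since it shares exons with the readthrough locus *NDUFC2-KCTD14*, which was not analysed here.

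Complex II, succinate dehydrogenase, had 2 of 4 members lower. The iron-sulfur subunit *SDHB* fell by 0.48 (SE 0.07, adjusted p = 8.5e-05) and the membrane anchor *SDHC* changed by -0.50 (SE 0.07, adjusted p = 4.1e-05). The catalytic subunit *SDHA* changed by 0.01 and the second anchor *SDHD* by -0.16, and neither passed the test.

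Complex III, which passes electrons from coenzyme Q to cytochrome c, had 6 of 8 members lower and 0 higher, with a median of -0.47. Its small subunits *UQCR11* and *UQCR10* fell most. *UQCR11* was at 85.9 and 71.7 CPM in regular and at 38.1 and 36.4 CPM in ischemic libraries (-1.08 ± 0.09, adjusted p = 4.8e-07). *UQCR10* was at 67.6 and 61.9 against 31.2 and 36.8 CPM (-0.93 ± 0.09, adjusted p = 2.1e-06). The Rieske iron-sulfur protein *UQCRFS1* fell by 0.67 (SE 0.08, adjusted p = 1.0e-05). The core proteins *UQCRC1* (-0.09) and *UQCRC2* (-0.10) did not pass the test. *UQCRHL* changed with *UQCRH* (-0.46 and -0.40), but reads of such near-identical copies cannot be told apart with certainty.

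Complex IV, cytochrome c oxidase, had 10 of 12 members lower and 1 higher, with a median of -0.41. *COX7B* had the largest fall, from 76.9 and 72.6 to 37.3 and 43.3 CPM (-0.89 ± 0.09, adjusted p = 1.6e-06), followed by *NDUFA4* (-0.74) and *COX6C* (-0.68 ± 0.09, adjusted p = 3.6e-05). *COX6B1*, whose product faces cytochrome c, went from 117 and 109 to 68.8 and 76.5 CPM (-0.64 ± 0.08, adjusted p = 1.1e-05). *COX8A* fell by 0.37 (adjusted p = 0.00026), *COX7A2* by 0.45 (adjusted p = 0.00016) and *COX6A1* by 0.26 (adjusted p = 0.0075).

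*COX7A2L*, which helps complexes III and IV to join in supercomplexes, went the other way. It was at 68.9 and 63.9 CPM in regular and at 120 and 123 CPM in ischemic libraries (0.87 ± 0.07, adjusted p = 3.4e-07). *COX7A2L* and *COX8A* were the 2 members of complex IV without an annotated pseudogene, and their median was 0.25. Reads from pseudogenes were not measured.

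The complex IV assembly factors were divided, with 5 of 9 lower and 2 higher. *COX18*, which inserts the tail of the COX2 subunit, went from 16 and 15.6 to 8.09 and 6.98 CPM (-1.08 ± 0.12, adjusted p = 6.9e-06). The copper chaperone *COX17* went from 24.1 and 19.9 to 10.4 and 11.9 CPM (-0.97 ± 0.12, adjusted p = 1.7e-05). *COX16*, which acts in COX2 maturation, fell by 0.76 (SE 0.13, adjusted p = 0.00019). *COX20*, a COX2 chaperone, rose from 5.27 and 5.29 to 9.76 and 9.86 CPM (0.89 ± 0.13, adjusted p = 7.0e-05), and *COX10*, which makes heme O, rose from 21.8 and 20.9 to 28.8 and 30.1 CPM (0.46 ± 0.09, adjusted p = 0.00056). Thus the factors that handle the COX2 subunit were found among both the falls and the rises.

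Complex V, the ATP synthase, had 15 of 17 members lower and 0 higher, with the lowest median of the classes with more than 4 members (-0.54). The membrane ring of this enzyme is built from subunit c, a protein encoded by *ATP5MC1*, *ATP5MC2* and *ATP5MC3*, whose mature products are identical. *ATP5MC1* was at 77.1 and 79.0 CPM in regular and at 23.4 and 25.4 CPM in ischemic libraries, the largest fall among all members (-1.68 ± 0.08, adjusted p = 2.8e-09). *ATP5MC3* went from 152 and 138 to 63.0 and 70.3 CPM (-1.12 ± 0.08, adjusted p = 9.9e-08). *ATP5MC2* did not pass the test (-0.07, 95% interval -0.24 to 0.09), and its libraries overlapped, at 162 and 150 against 141 and 156 CPM. Per kilobase of transcript, the level of *ATP5MC2* was 2.04-fold that of *ATP5MC1* in regular and 6.21-fold in ischemic cells. *ATP5MF*, another membrane subunit, fell by 0.92 (SE 0.10, adjusted p = 4.7e-06), and the inhibitor *ATP5IF1* by 0.30 (SE 0.07, adjusted p = 0.0026).

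**Figure D2:**
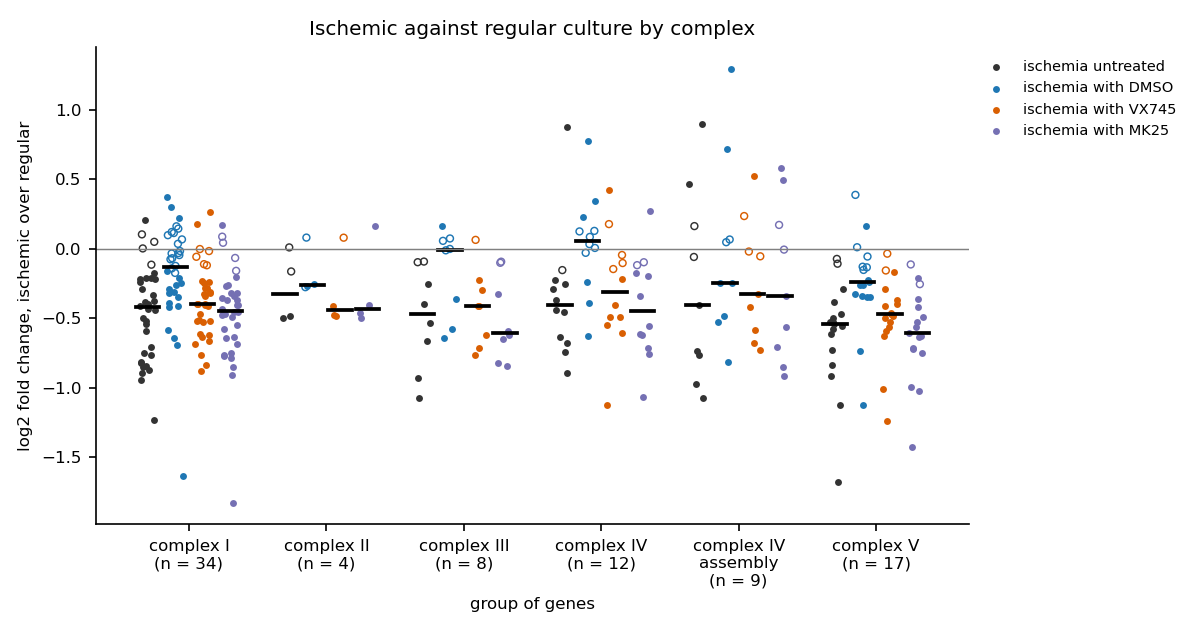
Log2 fold change of ischemic over regular culture for each gene (points; filled where the adjusted p was under 0.05) by complex, in untreated cells and with DMSO, VX745 or MK25, with the median as a bar. Untreated medians lie between -0.54 and -0.32, and those with DMSO between -0.26 and 0.06.

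The isoform pair *NDUFA4* and *NDUFA4L2* moved in opposite directions. *NDUFA4L2*, a paralog that HIF induces and that lowers complex I activity, was close to its detection limit in regular untreated cells, with 5 and 9 reads (0.285 and 0.403 CPM), and had 120 and 79 reads (4.43 and 3.81 CPM) in ischemic untreated cells. The log2 fold change was 3.60 ± 0.30 (adjusted p = 4.0e-07), the largest rise among members. *NDUFA4* went from 171 and 158 to 88.7 and 109 CPM (-0.74 ± 0.09, adjusted p = 1.4e-05). Even so, *NDUFA4* stayed the more abundant transcript: per kilobase its level was 225-fold that of *NDUFA4L2* in regular and 11.1-fold in ischemic cells.

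In the second experiment *NDUFA4L2* was at 0.548 and 0.719 CPM in regular DMSO, 1.02 and 0.913 in regular VX745, and 1.55 and 0.901 in regular MK25. In ischemic culture it was at 3.77 and 4.63 CPM with DMSO, 4.98 and 4.10 with VX745, and 3.30 and 4.46 with MK25. All 6 ischemic libraries thus lay above all 6 regular ones, and the ischemic groups overlapped each other. Ischemic culture raised *NDUFA4L2* by 2.74 ± 0.27 with DMSO (adjusted p = 8.4e-08), 2.23 ± 0.27 with VX745 (adjusted p = 1.2e-06) and 1.70 ± 0.27 with MK25 (adjusted p = 2.7e-05). The difference between the MK25 and the DMSO value, -1.03, did not pass the test (adjusted p = 0.059), nor did that between VX745 and DMSO (-0.51, adjusted p = 0.42). MK25 raised *NDUFA4L2* in regular culture by 0.91 ± 0.27 (adjusted p = 0.035). In the same comparison 9 of the 10 hypoxia list genes rose, with a median of 1.12, and their relation to *NDUFA4L2* was not tested.

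*COX4I1*, the housekeeping form of subunit 4, did not pass the test in untreated cells, at 243 and 222 CPM in regular and 198 and 219 CPM in ischemic libraries (-0.15, 95% interval -0.32 to 0.01). With DMSO it rose from 272 and 251 to 338 and 324 CPM (0.34 ± 0.07, adjusted p = 0.00031), a value that fell to 0.10 (adjusted p = 0.23) under quantile normalization. With MK25 it was lower in ischemic culture, at 284 and 273 against 342 and 298 CPM (-0.20 ± 0.07, adjusted p = 0.018), and with VX745 the change of -0.10 did not pass (95% interval -0.25 to 0.04). The order of the group means in the second experiment ran from regular DMSO, the lowest, to ischemic DMSO, the highest, and neighbouring groups overlapped in most steps.

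**Figure D3:**
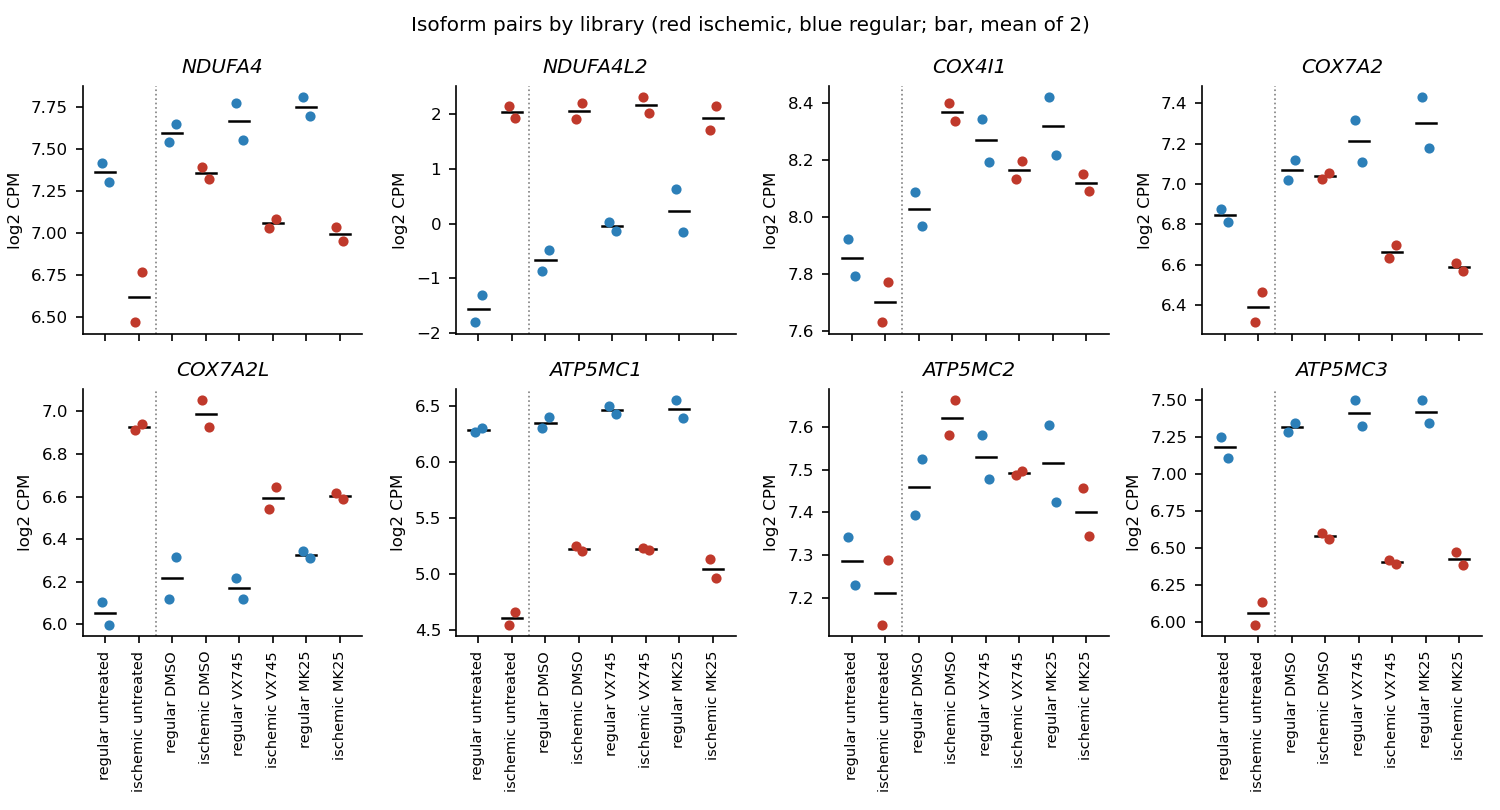
Log2 CPM of 8 isoform genes in each library (points) of the 8 groups, with the mean of 2 as a bar and a dotted line between the experiments. *NDUFA4L2* and *COX7A2L* are higher in ischemic than in regular libraries of the same treatment, *ATP5MC1* and *ATP5MC3* lower, and *ATP5MC2* changes little.

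With DMSO, fewer members differed between ischemic and regular culture: 38 of 87 were lower and 11 higher (35.2% and 34.4% of all genes), and the median was -0.14. The 2 ischemic libraries lay below both regular ones for 49 members and above for 18, against 42% and 41.3% of all genes. By complex, 15 of 34 members of complex I were lower and 3 higher, and 2 of 4 of complex II were lower and 0 higher. For complex III 3 of 8 were lower and 1 higher, and for complex IV 3 of 12 were lower and 3 higher. Of complex V, 10 of 17 were lower and 1 higher. The shares lower in complexes III and IV were 37.5% and 25.0%, against 35.2% of all genes. Their medians were -0.01 and 0.06. The share of reads taken by members was 0.960% ± 0.011 in regular DMSO and 0.775% and 0.776% in the ischemic DMSO libraries. Other genes with transcripts up to 1000 nt had a median of -0.15 in untreated ischemia and 0.08 with DMSO. Members of that length had medians of -0.50 and -0.14. With the trend on transcript length removed from each library, 55 members were lower untreated (4729 of 13559 genes) and 46 with DMSO (4936 of 14024). Their medians were -0.33 and -0.16. The part of transcript yield in this difference was not tested. The tables were normalized separately, so the difference from the untreated experiment was not tested. The vehicle and the experiment cannot be told apart.

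Of the members lower in untreated ischemic cells, 37 were also lower with DMSO, 31 did not pass and 1, *COX6A1*, was higher (0.23 ± 0.08, adjusted p = 0.013). The shares of all genes with such paired calls were not counted. Both calls of *COX6A1* were lost without a variance trend (adjusted p = 0.058 and 0.062). *ATP5MC1* fell from 79.3 and 84.7 to 38.1 and 37.0 CPM (-1.13 ± 0.07, adjusted p = 2.7e-10), *ATP5MC3* fell by 0.74 (SE 0.07, adjusted p = 2.6e-08), and *ATP5MC2* rose by 0.16 (SE 0.07, adjusted p = 0.041), a call not kept when libraries were centred (adjusted p = 0.063). *NDUFS6* fell by 0.69 (SE 0.09, adjusted p = 4.7e-06). The rises included *COX20* (1.29 ± 0.17, adjusted p = 2.3e-06), *COX7A2L* (0.77 ± 0.07, adjusted p = 2.6e-08), *COX10* (0.72 ± 0.09, adjusted p = 2.7e-06) and the catalytic complex I subunit *NDUFV1* (0.37 ± 0.06, adjusted p = 2.0e-05).

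With VX745, 65 members were lower and 5 higher in ischemic culture (32.6% and 34.0% of all genes; median -0.41), and with MK25, 68 were lower and 6 higher (33.7% and 33.5%; median -0.47). Across all 4 comparisons of ischemic with regular culture, 36 members were lower in each, and 3, *NDUFA4L2*, *COX7A2L* and *COX10*, were higher in each. Another 25 were lower in all but the comparison with DMSO. The shares of all genes with these patterns were not counted, so the numbers of members have no background here. *COX15*, the heme A synthase, passed in none. Per kilobase, *ATP5MC2* was between 2.10-fold and 2.20-fold of *ATP5MC1* in the 3 regular groups of the second experiment and between 4.91-fold and 5.36-fold in the 3 ischemic groups.

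The 13 subunits encoded in mitochondrial DNA, transcribed separately from the nuclear genes, changed in both directions. In untreated cells 9 of 13 were lower in ischemic culture and 2 higher, against 35.2% and 35.2% of all genes, with a median of -0.57. The share that rose was below that of all genes. *MT-ATP8* went from 550 and 615 to 116 and 92.8 CPM (-2.49), *MT-ATP6* from 2083 and 2250 to 482 and 435 CPM (-2.24), and *MT-CO3* from 3179 and 3283 to 932 and 843 CPM (-1.87). *MT-ND4*, of complex I, rose from 3716 and 4085 to 5097 and 5418 CPM (0.43). These transcripts are neighbours or overlap on a compact genome and the library kit does not keep the strand, so the split between them, that of *MT-ND6* above all, is uncertain.

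With DMSO 8 of 13 were lower and 4 higher, against 35.2% and 34.4% of all genes (median -0.71). The share that rose was near that of all genes. *MT-ND1* fell most (-1.89, against -1.65 in untreated cells), while *MT-CYB* (0.93), *MT-ND4* (0.89), *MT-ND4L* (0.71) and *MT-CO2* (0.62) rose. The genes lower in both experiments were found in complexes I, IV and V. Together the 13 genes took 2.81% ± 0.16 of reads in regular and 1.88% ± 0.017 in ischemic untreated libraries, and 2.64% ± 0.19 and 2.44% ± 0.14 with DMSO (SD, n = 2).

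**Figure D4:**
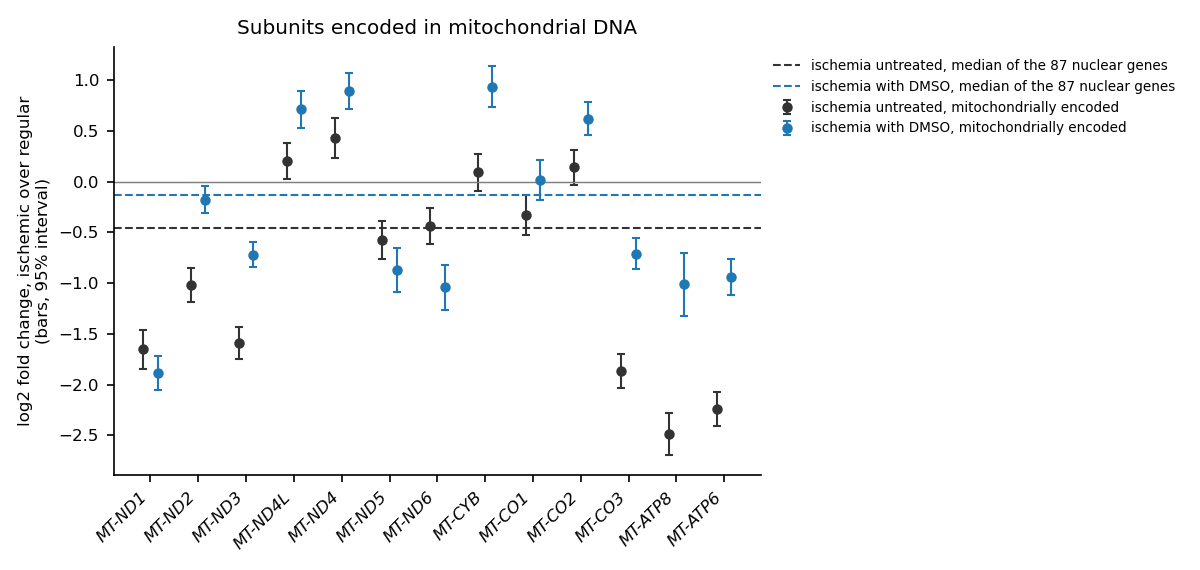
Log2 fold change of ischemic over regular culture with its 95% interval for the 13 subunits encoded in mitochondrial DNA, in untreated cells and with DMSO. Dashed lines give the medians of the 87 nuclear genes (-0.45 and -0.14). *MT-ATP8*, *MT-ATP6* and *MT-CO3* lie lowest in untreated cells, and *MT-ND4L* and *MT-ND4* lie above 0 in both.

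Other genes of the pathway were taken from lists. Of 17 complex I assembly factors, 11 were lower and 0 higher in untreated ischemic cells (median -0.40), led by *NDUFAF8* (-1.40) and *NDUFAF4* (-1.04). Of 29 assembly factors of complexes II to V that do not match the member names, 19 were lower and 1 higher (median -0.39). *COA7*, a complex IV assembly factor, fell by 1.88 and *COA3* by 1.16. With DMSO, 8 of 17 and 12 of 29 were lower, and 3 and 4 were higher, against 35.2% and 34.4% of all genes. Beside these, 62 of 75 subunits were lower in untreated cells, and 35.2% of all genes; the lists and the subunits were not compared by a test.

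Of 16 genes of electron carriers and coenzyme Q synthesis, 6 were lower and 6 higher in untreated cells (median -0.06), close to the shares of all genes (35.2% lower and 35.2% higher), and 5 were lower and 8 higher with DMSO (35.2% and 34.4% of all genes; median 0.16). Cytochrome c (*CYCS*) fell by 1.02 and the complex III subunit *CYC1*, whose name the rule does not match, by 0.49, whereas the coenzyme Q genes *COQ7* (0.43) and *COQ8A* (0.29) rose. Of 20 genes that mark mitochondrial content, such as citrate synthase and outer membrane import receptors, 11 were lower and 7 higher untreated (35.2% and 35.2% of all genes; median -0.25). With DMSO 8 were lower and 6 higher (35.2% and 34.4%; median -0.06). Apart from the falls in untreated cells, these counts were near the shares of all genes. 

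Among 16 transcriptional regulators of respiratory genes, 5 were lower and 4 higher in untreated cells (35.2% and 35.2% of all genes; median -0.12), and 8 were lower and 3 higher with DMSO (35.2% and 34.4%; median -0.18). The coactivator *PPARGC1B* fell in both experiments (-2.78 untreated and -2.60 with DMSO), as did *PPRC1* (-1.49 and -1.26) and the mitochondrial transcription factor *TFAM* (-0.66 and -0.91). *PPARGC1A* rose in untreated cells (1.09) and changed by 0.04 with DMSO, where it did not pass. The DNA-binding factors *NRF1* (-0.10) and *GABPA* (-0.06) did not pass in untreated cells. Of 11 hypoxic modulators of respiration, 6 were lower and 4 higher in untreated cells (median -0.18), and 2 were lower and 4 higher with DMSO (median -0.01), so the shares that rose were near those of all genes given above. The 4 that rose in both experiments were *PDK1* (4.42 and 4.27), *BNIP3* (4.16 and 4.24), *BNIP3L* (3.90 and 3.67) and *LONP1* (1.91 and 1.78). *PDK1* encodes a kinase that inhibits pyruvate dehydrogenase, and *LONP1* a protease that degrades COX4I1 protein. The supercomplex factor *HIGD1A* fell by 0.25 in untreated cells.

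Comparing each inhibitor with DMSO in the same culture asked whether p38α or MK2 activity bears on these genes. The 2 inhibitors were set against the same DMSO libraries, so their results are not independent. In ischemic culture VX745 lowered 24 members and raised 1 (14.9% and 14.0% of all genes; median -0.13), and MK25 lowered 46 and raised 1 (22.0% and 19.8%; median -0.19). None of these changes reached 1.5-fold, which 0.906% of all genes did downwards and 4.35% upwards with VX745, and 2.65% and 7.02% with MK25. Among classes with several members, complex IV had the lowest median under both, -0.27 with VX745 (8 of 12 lower) and -0.34 with MK25 (11 of 12 lower), whereas 0 of 4 members of complex II passed with either. Members took 0.776% ± 0.0002 of reads in ischemic DMSO, 0.762% ± 0.015 with VX745 and 0.728% ± 0.019 with MK25 (SD, n = 2). Effective library sizes lay further below read totals with DMSO than with the inhibitors. In replicate 1 these were 24580040 against 27239609 with DMSO, 32820099 against 33704896 with VX745, and 36854072 against 37562668 with MK25. The part of this scaling in the counts of members and in the interactions below was not tested.

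*COX7A2L*, which ischemic culture had raised, had the smallest adjusted p among the members that VX745 lowered. It was at 133 and 121 CPM with DMSO, 93.1 and 99.9 CPM with VX745 (-0.40 ± 0.07, adjusted p = 0.00051) and 98.0 and 96.1 CPM with MK25 (-0.39 ± 0.07, adjusted p = 0.0003). The paralog *COX7A2* was at 130 and 133 CPM with DMSO, 99.3 and 104 with VX745 (-0.37 ± 0.08, adjusted p = 0.0019) and 97.8 and 94.9 with MK25 (-0.45 ± 0.08, adjusted p = 0.00021). For both genes the inhibitor libraries lay below both DMSO libraries.

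Other falls with VX745 in ischemic culture were those of *COX7B* (-0.36), *COX6B1* (-0.33) and the complex I iron-sulfur subunit *NDUFS1* (-0.22). Among the members that MK25 lowered, the smallest adjusted p belonged to *ATP5MK*, a small ATP synthase subunit. It went from 69.4 and 65.1 to 45.5 and 50.2 CPM (-0.49 ± 0.07, adjusted p = 4.1e-05), and *NDUFS5* (-0.40) and *NDUFS1* (-0.28) fell too. The member that rose with either inhibitor was the copper handling factor *COX19*. It went from 23.5 and 24.7 CPM to 27.1 and 30.9 with VX745 (0.26 ± 0.08, adjusted p = 0.023) and to 30.6 and 29.2 with MK25 (0.31 ± 0.08, adjusted p = 0.0056). The counts rested on single libraries: without ischemic VX745 replicate 1, 5 members were lower with VX745, and without ischemic MK25 replicate 2, 19 were lower with MK25. Without ischemic DMSO replicates 1 or 2 the counts were 11 or 15 for VX745 and 29 or 24 for MK25, and without ischemic VX745 replicate 2 the count was 14. Under quantile normalization 10 were lower with VX745 and 22 with MK25.

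In regular culture VX745 changed 0 members in limma (0.178% of all genes were higher and 0.157% lower; median 0.11). The estimates of members ran from -0.40 to 0.66, and that of *COX4I1* was 0.24 (95% interval 0.09 to 0.39, adjusted p = 0.13). Without regular DMSO replicate 1, 8 members were higher. At an unadjusted p under 0.05, 21 were higher and 0 lower, and limma-voom on recovered reads called 0 as well. All genes were not counted at that unadjusted threshold, so the 21 have no background share. MK25 in regular culture raised 16 members and lowered 1 (7.0% and 5.21% of all genes), with a median of 0.12. Of the 16, 9 belonged to complex I, which holds 34 of the 87 members. Other genes with transcripts up to 1000 nt rose too, with a median of 0.12 against 0.17 for members of that length. With VX745 in regular culture these medians were 0.08 and 0.13. With the length trend removed, 10 members were higher and 3 lower with MK25 (1042 and 916 of all 14024 genes), with a median of 0.06. *NDUFB2* went from 67.2 and 59.5 to 89.5 and 77.6 CPM (0.40 ± 0.09, adjusted p = 0.0056) and *UQCRQ* from 152 and 118 to 192 and 170 CPM (0.43 ± 0.09, adjusted p = 0.0059). *COX16* (0.73) and *ATP5F1E* (0.75) rose most beside *NDUFA4L2*, and both were low in regular DMSO replicate 2, as given above. *ATP5F1D*, of the central stalk of ATP synthase, fell (-0.44 ± 0.11, adjusted p = 0.016). Without regular DMSO replicate 2, or without regular MK25 replicate 1, 1 member was higher, and likewise 1 without a variance trend. A fold of at least 1.5 was reached by 3 of the members that MK25 raised and 0 that it lowered (1.88% and 0.606% of all genes), against 0.0642% and 0.0357% of all genes with VX745.

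**Figure D5:**
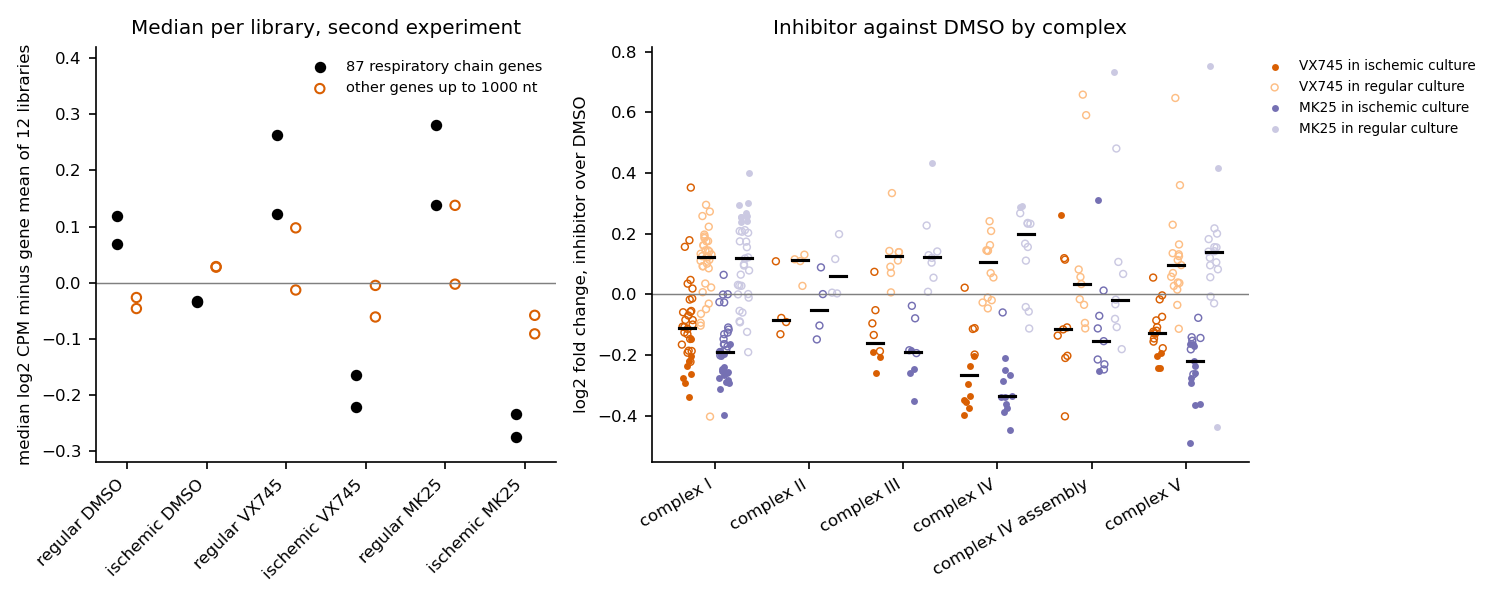
Left, the median over members of log2 CPM minus each gene's mean of the 12 libraries, per library of the second experiment (black), beside the same for other genes with transcripts up to 1000 nt (open). Right, log2 fold change of inhibitor over DMSO per gene and complex (filled where the adjusted p was under 0.05; bars, medians); medians with the inhibitors lie below 0 in ischemic culture for complexes I to V.

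The effect of the inhibitors differed between the cultures for many members. As tested by the interaction of inhibitor and culture, 28 members responded to VX745 more negatively in ischemic than in regular culture and 0 more positively (6.0% and 5.78% of all genes; median -0.22). For MK25 these were 44 and 1 (13.9% and 10.5%; median -0.29). Among classes with several members, complex IV stood lowest by its median, with 8 of 12 members past the test for each inhibitor (medians -0.41 and -0.51). The interaction has all 4 DMSO libraries in common between the inhibitors.

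*COX7A2* showed the pattern: VX745 changed it by -0.37 in ischemic and by 0.14 in regular culture (interaction -0.52 ± 0.11, adjusted p = 0.0071), and MK25 by -0.45 and 0.23 (interaction -0.68 ± 0.11, adjusted p = 0.0003). *NDUFS5* (-0.49 with VX745 and -0.65 with MK25), *COX6B1* (-0.50 and -0.62) and *COX4I1* (-0.45 and -0.54) did likewise. *ATP5MC1* did not pass with VX745 (-0.12, 95% interval -0.33 to 0.10). Members' medians per library, taken as deviations from each gene's mean, were -0.03 in both ischemic DMSO libraries, -0.28 to -0.16 in ischemic inhibitor libraries, 0.07 and 0.12 in regular DMSO, and 0.12 to 0.28 in regular inhibitor libraries.

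Other short transcripts moved the same way to a lesser degree. For the 966 listed genes that are no members and have transcripts up to 1000 nt, the median interaction was -0.16 with VX745 and -0.23 with MK25, against -0.26 and -0.36 for the 49 members of that length. With the trend on transcript length removed from each library, 23 members were lower for VX745 and 31 for MK25, with medians of -0.15 and -0.16. Over all 14024 genes, lower calls went from 842 to 1183 for VX745 and from 1956 to 2191 for MK25. The part of transcript yield in the interaction result beyond this length trend was not tested. Without ischemic VX745 replicate 1, regular VX745 replicate 1 or ischemic DMSO replicate 1, the VX745 count was 5, 6 or 7, and without regular DMSO replicate 2, ischemic VX745 replicate 2 or ischemic DMSO replicate 2 it was 13, 15 or 17. Without a variance trend in limma, 1 member was lower for VX745 and 30 for MK25. Over all genes these counts were 210 and 1432. A difference of at least 1.5-fold was found for 4 members lower and 0 higher with VX745 (0.734% and 2.35% of all genes) and for 10 and 0 with MK25 (3.53% and 4.41%).

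Over the 6 group means of the second experiment, the genes whose pattern was most like that of *NDUFA4L2* were *TTC31*, *CCDC171*, *ADM2*, *LINC01583* and *ITFG2*, each with a Pearson r of 0.999 among 13486 genes whose mean reached 1 CPM. With 6 points that share libraries and a single contrast between cultures, such values are reached by many genes and describe the order of the levels.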

How the data were processed

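RNA-seq libraries of LN229 cells, 2 in each of 8 groups, were made with a SMART-Seq kit and Nextera XT, which do not keep the strand. Reads had been trimmed and mapped with HISAT2 (GRCh38), and the authors deposited log2 CPM per Entrez gene, in a table for each experiment; the annotation was of GRCh38, and its release and the counting program are not given in the sources used here. The authors used edgeR for differences, and their comparisons were not used. Whole reads were recovered from the deposited log2 values (100% within 0.05 of a whole number, after a mean offset of 2.08 or 2.00 reads), and libraries held 20122017 to 37562668 reads. Replicates differed by more than sampling noise. CPM is scaled to an effective library size, so a change is relative to all other genes and depends on that scaling.

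Entrez identifiers were matched to RefSeq symbols (99.3% and 99.4% of genes), 2 members by an older symbol. Differences were tested with limma (version 3.58.1) under R 4.3.3, with a mean per group, a variance trend and Benjamini-Hochberg adjustment over the 13559 or 14024 genes of a table. A call is an adjusted p under 0.05. On simulated data 97.5% of 200 genes changed by 1 (log2) were recovered for untreated ischemia, among 13559 genes. For ischemia with DMSO, among 14024, 98.5% were recovered. The changed genes were drawn from those with more reads, and all genes had the same set dispersion. Smaller changes, such as those of most members, were not simulated, so their recovery is not known. Levels were compared within a table. Transcript lengths were those of GENCODE canonical transcripts. Of the members, 48 have an annotated pseudogene with which reads may be shared. Named genes were the isoform genes, the 3 largest rises and falls per class in untreated ischemia, up to 5 genes per direction with the smallest adjusted p for each inhibitor comparison, and members called in opposite directions in the 2 experiments; *NDUFC2*, and the genes named from other lists, were chosen after their values were seen. Members and lists were chosen with earlier results of these data known. The alternatives tried were voom on recovered reads, no variance trend, a minimum mean of 1 CPM, centred libraries, quantile normalization, a replicate block, a fold of at least 1.5, the compared groups alone, members without a pseudogene, each library left out and, chosen after seeing the data, a length trend removed.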

Additional observations from a re-analysis of the deposited data

Results flagged for a closer look

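The response to the inhibitors differed between ischemic and regular culture, by the interaction term in limma, for 28 members with VX745, all more negative in ischemic culture, and for 44 more negative and 1 more positive with MK25. For VX745 the interactions with the smallest adjusted p were those of *NDUFS5* (-0.49), *COX7A2* (-0.52), *COX7B* (-0.50), *NDUFB1* (-0.60) and *COX6B1* (-0.50), on the log2 scale. For MK25 they were those of *ATP5MK* (-0.67), *NDUFS5* (-0.65), *COX7A2* (-0.68), *COX6B1* (-0.62) and *UQCRH* (-0.58), and *COX19* was the member with a positive one (0.42). The DMSO libraries are shared between both inhibitors, and short transcripts outside the pathway moved the same way to a lesser degree, as given with the interaction result. Groups of 2 libraries were not tested for single outlying libraries.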

How the results depend on the processing

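Of 209 member calls named, 1636 values under other settings kept their direction in every case, and 124 of them lost the call; with a library left out these were 194 of 2220. Counts of members lower in ischemic culture ranged with 1 library left out from 55 to 69 untreated, 32 to 33 with DMSO, 56 to 64 with VX745 and 62 to 73 with MK25, and counts higher from 4 to 5, 9 to 14, 4 to 6 and 4 to 8. Those lower with VX745 in ischemic culture ranged from 5 to 15 (higher 0 to 1), with MK25 from 19 to 37 (higher 1 to 1), and those higher in regular culture from 0 to 8 with VX745 (lower 0 to 0) and from 1 to 23 with MK25 (lower 0 to 2). Interaction counts ranged from 5 to 30 lower (0 to 1 higher) for VX745 and from 30 to 56 (0 to 1 higher) for MK25.

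With a fold of at least 1.5 asked for, 29 members were lower and 3 higher in untreated ischemia, 8 and 4 with DMSO, 20 and 1 with VX745, 32 and 1 with MK25, 0 and 0 for either inhibitor in ischemic culture, 0 and 3 for MK25 in regular culture, and 4 lower for the VX745 and 10 lower and 0 higher for the MK25 interaction. Without a variance trend, 10 members were lower with VX745 and 27 with MK25 in ischemic culture, 1 was higher and 0 lower with MK25 in regular culture, and 1 was lower by the VX745 interaction. Under quantile normalization these were 10 and 22 lower (2 higher with MK25), 16 by the VX745 interaction, and 7 higher in ischemia with DMSO. With the compared groups alone, 41 were lower and 4 higher with VX745 in ischemic culture, and 4 higher with MK25 in regular culture. With the length trend removed, 3 were higher with VX745 in ischemic culture, 10 higher and 3 lower with MK25 in regular culture, and 1 and 2 higher by the VX745 and MK25 interactions. The causes of these shifts were not tested. Among members without an annotated pseudogene, the median of complex IV in ischemia untreated reversed to 0.25 (2 genes) and the median of complex III in ischemia with DMSO to 0.056 (3 genes).

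With a replicate block, 21 members were higher with MK25 in regular culture against 16, and all other counts stayed within 1.5 times. Correlations of same-numbered deviations over all genes ran from -0.10 to 0.18 in the second experiment, with 0.19 in the first. Such values do not show whether the replicate numbers pair the libraries. In every regular group the members' median deviation was higher in replicate 1 than in replicate 2. These medians were 0.29 and 0.17 untreated, 0.12 and 0.07 with DMSO, 0.26 and 0.12 with VX745, and 0.28 and 0.14 with MK25. In the ischemic groups the order was mixed. With 2 libraries a group, small changes and genes near the detection limit, *NDUFA4L2* in regular culture above all, remain imprecise, and intervals cover the spread between libraries alone.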

Other observations

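Mitochondrial genes outside the respiratory chain also differed with the inhibitors in ischemic culture. Of 20 markers of mitochondrial content, 14 were lower with VX745 (median -0.23) and 16 with MK25 (median -0.32), against 14.9% and 22.0% of all genes, and 0 were higher with either (14.0% and 19.8% of all genes). These shares also apply to the lists below. In regular culture 0 of the 20 passed in limma with VX745 (0.178% of all genes higher and 0.157% lower) or MK25 (7.0% and 5.21%). At an unadjusted p under 0.05 there were 3 and 4, with no share of all genes counted at that threshold. Of the 13 subunits encoded in mitochondrial DNA, 1 was lower with VX745 in ischemic culture, and 3 were lower and 1 higher with MK25, and *MT-CO3* had the largest of these changes with MK25 (-0.88). Of 10 hypoxia list genes, 8 were lower with VX745 in ischemic culture (median -0.35) against 1 lower and 1 higher with MK25.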
